A study of Mus musculus with 45 samples.

Results

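The SoxB, SoxC and Sox9 transcription factor genes were followed in mouse embryonic cortical cells by SLAM-seq, a method that reads metabolically labelled RNA from T-to-C conversions. The members were chosen by name and by no rule on measured values, but with earlier results of these data known. The SoxB group gave Sox2, Sox3 and Sox21 (with Sox1), the SoxE group Sox9, and the SoxC group Sox4, Sox11 and Sox12. Of these 8 genes, 7 were among the 53491 genes of the 9 tables used, and Sox1 was not analysed here.

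All of these factors bind DNA through a related HMG box. In the developing nervous system SOX2 and SOX3 are known for holding neural progenitors in an undifferentiated state, SOX21 for opposing them, and SOX9 for progenitor maintenance and the later start of gliogenesis. SOX4, SOX11 and SOX12 are known for turning on neuronal genes in cells that leave the progenitor state. Transcription factor mRNAs are often short-lived, so the amount of such an mRNA can follow changes in its synthesis closely.

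The cells were unsorted primary cortical cells of wild-type (WT) mouse embryos of 3 stages, E11.5, E14.5 and also E16.5. All were plated on poly-D-lysine in neural progenitor medium with bFGF, and all received 4-thiouridine (4sU), a uridine analogue, at 100 uM for 20 h. A molar excess of uridine (5 mM) was then added, and wells were lysed after 0, 2, 4, 8 and 12 h of this chase. Each stage had 3 replicates, named A, B and C and made by pooling the cortices of 7 embryos for E11.5 or of 2 for the others, and each pool filled 5 wells, which gave 45 libraries in 15 groups of 3. The medium favours progenitors, and the values describe cells after a day in culture rather than cortex.

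Libraries held 15.9 to 43.9 M recovered reads (M for 1e6 reads), with a median of 33.0 M. The locus Gm42418, which overlaps ribosomal RNA sequence, took 29686, 35413 and 67623 counts per 1e6 reads (cpm) in the E11.5 libraries at 12 h, against a median of 2868 over all libraries. At E14.5 it took 14846 and 20507 cpm in replicates A and B at 2 h, and 18081 in replicate C at 8 h. The cpm of other genes was lowered in these libraries, and chase changes below are given on TMM-normalized levels. Summed markers of radial glia (7 genes, led by Vim) lay at 9455 to 9972 cpm at E11.5 and fell through 3616 to 4186 to 1415 to 1564 at E16.5, while 7 neuronal markers summed to 2993 to 3567, 5924 to 6761 and 8307 to 8601 cpm at 0 h. Vim made up most of the radial glial sum at E11.5 (6985 cpm). Slc1a3, on the same list, went from 99.0 through 290 to 190 cpm and so was higher at E16.5 than at E11.5. Markers of meninges fell from 427 to 659 cpm at E11.5 to 10.4 to 25.9 at E16.5, those of erythroid cells from 1507 to 3274 to between 79.0 and 190, and interneuron markers stood at 39.5 to 45.2 and then at 268 to 277. The 8 markers of astrocytes and the oligodendrocyte lineage, Sox10 among them, went from 122 to 151 cpm through 310 to 494 to 327 to 373. Between E11.5 and E16.5 the edgeR test described below called 31.4% of all genes as higher and 33.1% as lower. It called 6 of 7 tested markers of this last list higher, as well as 7 of 7 neuronal and 5 of 5 tested interneuron markers. Of radial glial markers 6 of 7 were lower and 1 higher, of meningeal markers 4 of 5 lower and 1 higher, and of erythroid markers 3 of 4 lower. There was no marker gene of any list at 0 in all libraries at 0 h. In such bulk samples fewer cells of a type and less RNA per cell cannot be told apart, and for the same reason the groups are named here by family and not as progenitor or neuronal genes.

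Most members are compact genes. On GRCm38, in the GENCODE annotation, Sox2 (ENSMUSG00000074637) lies at chr3:34650405-34652461 on the + strand, Sox3 (ENSMUSG00000045179) at chrX:60891366-60893430 on the - strand and Sox21 (ENSMUSG00000061517) at chr14:118233232-118237030 on the - strand. Sox9 (ENSMUSG00000000567) lies at chr11:112782224-112787760 on the + strand. Sox4 (ENSMUSG00000076431) lies at chr13:28948919-28953713, Sox11 (ENSMUSG00000063632) at chr12:27334264-27342574 and Sox12 (ENSMUSG00000051817) at chr2:152393611-152398063, all on the - strand. Sox9 has 3 exons and the other 6 listed members have 1, a structure found in 6.42% of 21416 coding genes. The 3′ UTRs ran from 712 bases in Sox3 and 1086 in Sox2 to 2780 in Sox4, 3143 in Sox12 and 6957 in Sox11, the last longer than 98.7% of 20771 3′ UTRs, whose median was 939 bases.

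Letters known from RNA decay were searched in the 3′ UTRs, on the transcript strand only. The nonamer TTATTTATT, a form of AU-rich element, occurred once in Sox9 and once in Sox11, against 11.47% and 27.17% of 3′ UTRs within 20% of their lengths. The 8-mer TGTANATA, the letters bound by Pumilio proteins, occurred 3 times in Sox21 and once each in Sox2, Sox4 and Sox11. Of 3′ UTRs as long as that of Sox21, 29.2% held it at least once and 1.37% held it 3 times or more. For Sox2, Sox4 and Sox11 these shares, for at least 1 copy, were 21.7%, 42.4% and 74.9%. The sites in the 4 members whose levels or decay are described most closely below are shown as stretches of 30 bases with the motif in capitals:
Sox9, chr11:112786749-112786778, + strand: tgtgctaaaaTTATTTATTttgtaaggaga
Sox11, chr12:27335425-27335454, - strand: aaattaagcaTTATTTATTgaaaactatgt
Sox11, second motif, chr12:27335988-27336017, - strand: acttttgctctTGTACATAtgttgtgggta
Sox2, chr3:34652339-34652368, + strand: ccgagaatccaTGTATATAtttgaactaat
Sox21, first site, chr14:118234761-118234790, - strand: gtgcacacacgTGTACATAtgtataggttc
Sox21, second site, chr14:118234690-118234719, - strand: cccggtttgtaTGTACATAgatgtataggt
Sox21, last site, chr14:118233469-118233498, - strand: tcccttttaaaTGTATATAttttgactaat
The motif of the first site of Sox21 began at base 26 after the stop codon. The pentamer ATTTA was found in all 7 3′ UTRs, from 1 copy in Sox3 to 10 in Sox11, and for every member at least 21.7% of 3′ UTRs of similar length held as many. The 7 letters complementary to the seed of miR-9-5p (ACCAAAG), a microRNA of neural progenitors, were in none of the 7 3′ UTRs. These matches describe letters in the sequence and no bound factor.

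The first comparison was of mRNA levels between stages at 0 h of chase. The SoxB genes and Sox9 fell at each step, whereas Sox4 and Sox11 were higher at E16.5 than at E11.5 and Sox12 rose only between E14.5 and E16.5. Sox2 stood at 271.3, 274.5 and 262.9 cpm at E11.5 (269.6 ± 6.0, SD, n = 3), then at 99.8, 126.5 and 129.6 in E14.5 cells (118.7 ± 16.4), and lastly at 81.4, 82.0 and 83.6 (82.3 ± 1.1) in E16.5 cells. Sox3, the X-linked SoxB gene that acts much like Sox2, gave 278.4, 324.9 and 215.7 cpm, then 74.1, 89.7 and 58.8, then 37.7, 37.3 and 36.0. Sox21 gave 152.3, 175.4 and 142.3 cpm, then 59.6, 70.5 and 62.2, then 37.4, 35.5 and 28.7. For all 3 genes the replicates of successive stages did not overlap, and at E11.5 the replicates of Sox3 were the most spread.

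Sox9 fell in the same order, from 530.0, 518.4 and 512.0 cpm at E11.5 to 216.5, 271.7 and 182.3 at E14.5 and 89.8, 85.6 and 81.9 at E16.5, again without overlap. Of the SoxC genes, Sox4 gave 1134.7, 1170.2 and 1047.0 cpm, then 1313.7, 1322.1 and 1238.9, then 1639.8, 1714.5 and 1554.0, with no overlap between stages. Sox11 gave 1057.1, 1130.7 and 1099.8 cpm, then 1631.7, 1594.9 and 1546.2, then 1566.3, 1647.0 and 1478.0, so that its 2 later stages overlapped. Sox12 was lowest at E14.5, with 154.7, 159.8 and 135.3 cpm, after 169.3, 201.0 and 175.3 at E11.5 and before 240.3, 264.1 and 251.4 at E16.5.

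**Figure D1:**
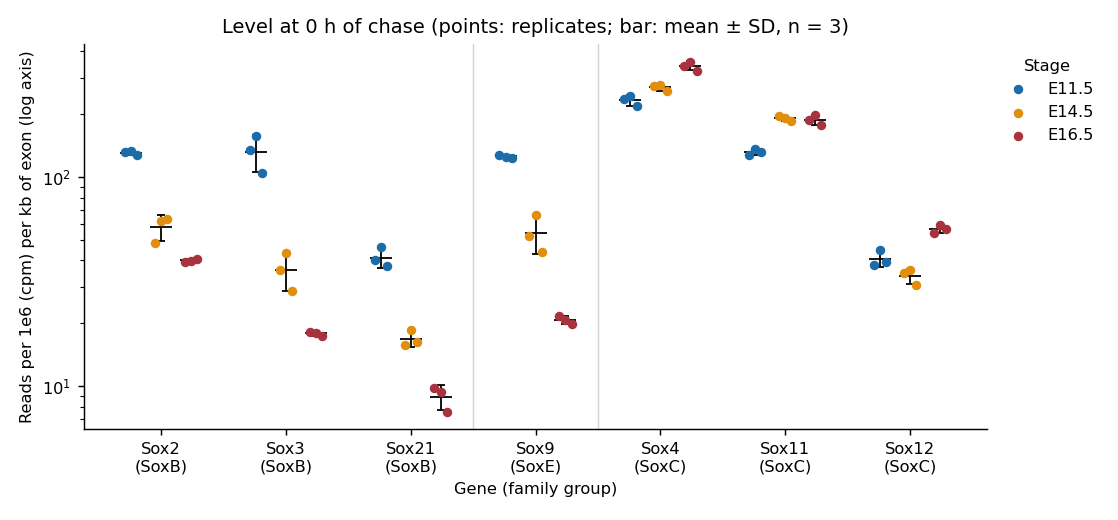
Level of the 7 listed Sox genes at 0 h of chase, in cpm per kb of exon on a log axis, by gene and stage. Points are the 3 replicates and bars the mean ± SD; the SoxB genes and Sox9 step down from E11.5 to E16.5, while Sox4 goes from 233 to 341.

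With edgeR's quasi-likelihood F-test on covered-T counts (T positions under reads, summed per gene), 6 of the 7 members were called between E11.5 and E14.5, at a Benjamini-Hochberg adjusted p under 0.05, where 48.6% of the 18408 genes tested were. At that step the 3 SoxB genes and Sox9 also changed by more than 2-fold, as 16.1% of all genes did. Sox3 fell most, by 1.77 on the log2 scale (SE 0.15, adjusted p = 5.4e-07), followed by Sox9 (log2 change -1.16, SE 0.10, adjusted p = 6.1e-07), Sox21 (-1.14, SE 0.11, adjusted p = 2e-06) and Sox2 (-1.09, SE 0.09, adjusted p = 3.4e-07). Sox4 rose by 0.30 (SE 0.07, adjusted p = 0.002) and Sox11 by 0.62 (SE 0.06, adjusted p = 4.2e-06), while the value for Sox12 was -0.18 (SE 0.09, adjusted p = 0.11). The call of the SoxB genes and Sox9 thus came with fold changes between 2.12 and 3.41, and those of Sox4 and Sox11 with 1.23 and 1.54. Genes were tested with more than 10 covered Ts in every library, and a read covers several Ts. Genes near the floor were thus tested too, such as Sox18, with a mean of 0.217 cpm over the 45 libraries. The shares of all genes called by edgeR include such genes, whereas every member had at least 984 reads at 0 h.

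Between E14.5 and E16.5 again 6 of 7 members were called, against 49.5% of all genes, and Sox3, Sox21 and Sox9 passed 2-fold, against 13.1%. Here Sox9 fell most (log2 change -1.41, SE 0.10, adjusted p = 2.3e-07), ahead of Sox3 (-1.09, SE 0.14), Sox21 (-1.01, SE 0.11) and Sox2 (-0.59, SE 0.08). Sox12 rose by 0.70 (SE 0.09, adjusted p = 2.5e-05) and Sox4 by 0.28 (SE 0.07, adjusted p = 0.0031), and Sox11 gave -0.04 (adjusted p = 0.61). Over the whole span from E11.5 to E16.5 all 7 members were called, against 64.4% of genes, and the 4 that passed 2-fold, against 29.3%, were Sox2 (3.20-fold lower), Sox3 (7.25-fold), Sox21 (4.46-fold) and Sox9 (5.93-fold). The 3 SoxC genes rose over this span by 0.59 (Sox4), 0.58 (Sox11) and 0.52 (Sox12) on the log2 scale, with adjusted p of 4.5e-06, 3.6e-06 and 1.4e-04. Markers of radial glia, neurons, and astrocytes and the oligodendrocyte lineage moved along the same stages (above), and their part in these changes was not tested.

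Per kb of exon, which allows levels of different genes to be compared, Sox4 was the highest member at every stage (233, 269 and 341 cpm per kb). At E11.5 Sox3 (132), Sox11 (132), Sox2 (131) and Sox9 (126) followed, with replicates overlapping from each to the next, and Sox21 (41.2) and Sox12 (40.8) overlapped below them. At E14.5 the order was Sox11 (191), Sox2 (57.7), Sox9 (54.1), Sox3 (35.9), Sox12 (33.7) and Sox21 (16.9), with overlap between Sox2 and Sox9 and between Sox3 and Sox12. At E16.5 no neighbours overlapped, and Sox11 (188) was followed by Sox12 (56.6), Sox2 (40.0), Sox9 (20.7), Sox3 (17.9) and Sox21 (8.92). The summed SoxC level per kb was 1.34 ± 0.10 times that of the 3 listed SoxB genes at E11.5, then 4.51 ± 0.49 times, then 8.76 ± 0.34 times (SD, n = 3).

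The other Sox genes did not all follow these groups. Of 12 listed, 6 passed the count filter, and of these Sox6 (log2 change from E11.5 to E16.5 of -2.01) and Sox13 (-3.02), both of the SoxD group, fell. Sox8 (0.32, adjusted p = 0.013) and Sox10 (3.39), relatives of Sox9 in the SoxE group, rose, Sox10 from a very low level (a mean of 1.64 cpm over the 45 libraries). Sox5, the SoxD gene of deep-layer projection neurons, stood at 141, 162 and 129 cpm with a change of -0.05 (adjusted p = 0.65). Sox2ot, a noncoding gene on the same strand whose transcribed span holds Sox2 but shares no exon base with it, stood at 14.2, 10.0 and 21.3 cpm and rose by 0.69 between E11.5 and E16.5, in the opposite direction to Sox2. Sox1ot, the noncoding gene named after Sox1, stood at 4.08, 2.62 and 10.5 cpm. Sox21 shares 713 exon bases with Gm4675 on the opposite strand (2.82, 1.70 and 0.84 cpm), and Sox4 shares 2616 with Gm26735, which was not analysed here. The library kit keeps the strand, but whether strand was used in counting was not stated in the sources used here. Among the transcripts of the 7 listed members the longest exact shared runs were 48 bases (Sox4 and Sox11) and 38 (Sox2 and Sox21), and Sox1 shares 45 with Sox3 and 38 with Sox2.

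Genes of the same settings were taken from 3 lists, in a comparison that called 31.4% of all genes as higher and 33.1% as lower. Among 14 listed genes of radial glia and SOXB-associated regulation, 11 fell and 3 rose between E11.5 and E16.5, with a median log2 change of -1.53 against -0.04 over all genes. Vim, an intermediate filament of radial glia, fell by 3.23, Fabp7, a lipid-binding protein, by 2.23 and Nes by 1.87, while Pou3f3, a POU factor, rose by 0.70. Of 10 proneural and intermediate progenitor genes 7 fell and 1, Neurod1 (0.92), rose, with a median of -1.00. Of 12 neuronal genes 11 rose and 1 fell, with a median of 1.55, and Dcx, a microtubule-associated protein of migrating neurons, rose by 1.85, Neurod6 by 2.96 and Map2 by 1.38.

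Genes most alike to each member were taken by Pearson's r of log2(cpm + 1) over the 45 libraries, among 11506 genes with a mean of at least 5 cpm, as a description, since libraries of a pool and stage share their source. For Sox2 these were Smad3 (r = 0.987), Yap1 (0.987) and Lrp4 (0.985), and for Sox9 Limd1 (0.990), Zfp36l1 (0.989) and Spsb4 (0.987). For Sox4 they were Nck2 (0.962), Mn1 (0.958) and Pisd-ps1 (0.955), and for Sox11 Cbfa2t2 (0.970), Acvr2a (0.966) and Sfxn3 (0.966). Sox3 had Sept9, Ptpru and Fhl3, Sox21 had Tcf7l2, Mest and Smad3, and Sox12 had Gsk3a, Efna2 and Cacng4. These names depended on the libraries used, since over the 9 libraries at 0 h 2 of the 3 genes recurred for Sox4, 1 for Sox2, Sox9, Sox11 and Sox12, and 0 for Sox3 and Sox21. Among members, Sox2 gave 0.977 with Sox3, 0.969 with Sox21, 0.947 with Sox9, -0.866 with Sox4 and -0.803 with Sox11, while Sox11 and Sox12 gave 0.062.

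The second measurement was the label itself. The conversion rate, the percent of covered Ts read as C, was taken at 0 h, after 20 h with 4sU. It depends on how much of an mRNA was made during labelling and on how much 4sU its cells took up. The half-lives of the members (below) ran from 1.43 to 5.65 h, short against these 20 h. Over all genes the conversion rate was 1.09, 1.01 and 1.44% at E11.5, then 1.09, 1.18 and 1.03%, then 1.80, 1.91 and 1.88%. The cause of the higher rate in the E16.5 libraries was not tested. Sox11 followed this rise, with 0.965, 0.841 and 1.25%, then 1.02, 1.07 and 0.979%, then 1.71, 1.89 and 1.87%. Sox2 gave 1.07, 0.974 and 1.36%, then 1.05, 1.18 and 1.01%, then 1.22, 1.27 and 1.29%. Sox3 gave 1.01, 0.877 and 1.27%, then 1.06, 1.13 and 0.995%, then 0.648, 0.872 and 0.842%. At E16.5 the rates of Sox2 and Sox3 thus lay further below those of their libraries than at the earlier stages. Sox3 was already below its libraries in all replicates of E11.5 and E14.5, and Sox2 in those of E11.5. The rates of Sox3 at E16.5 also lay below its own rates at the earlier stages.

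The rates rest on 11108 to 17203 covered Ts of Sox3 at E16.5, its least covered stage, with 72 to 150 conversions, and the lowest, 0.648%, has a 95% Wilson interval of 0.515 to 0.815%. For Sox11 at E16.5 it was 701482 to 1217203 covered Ts with 12021 to 23011 conversions. These intervals cover counting error only. Divided by the rate of the library, Sox3 carried 0.894 ± 0.031 of the average label at E11.5, then 0.964 ± 0.007, then 0.422 ± 0.053. Sox21 went from 1.003 ± 0.048 and 1.197 ± 0.141 to 0.585 ± 0.039, Sox9 from 1.052 ± 0.013 and 1.204 ± 0.110 to 0.626 ± 0.027, and Sox2 from 0.966 ± 0.023 and 0.982 ± 0.023 to 0.676 ± 0.011. In each of these 4 genes every replicate at E16.5 lay below every replicate of the earlier stages. Sox4 stayed between 0.927 ± 0.010 and 0.967 ± 0.015, and at E16.5 Sox11 and Sox12 reached 0.978 ± 0.022 and 0.956 ± 0.005.

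**Figure D2:**
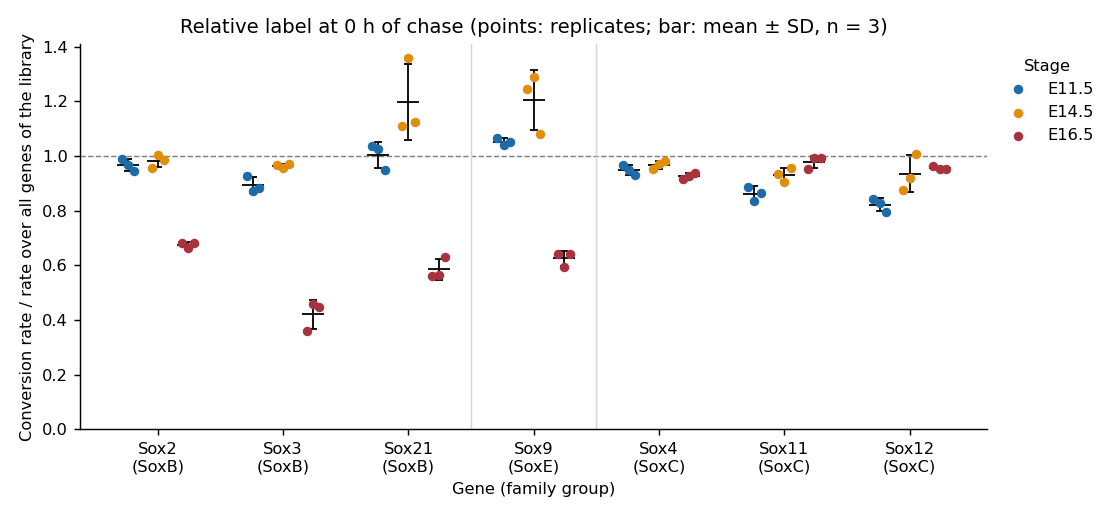
Conversion rate at 0 h of chase divided by the rate over all genes of the same library (vertical axis, no unit), by gene and stage. Points are the 3 replicates, bars the mean ± SD and the dashed line marks 1; at E16.5 Sox2, Sox3, Sox21 and Sox9 lie between 0.36 and 0.68, and the SoxC genes above 0.9.

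This comparison was tested with limma on log2 rates centred on the median of each library, a test chosen after the values were seen. Between E14.5 and E16.5 it called 17% of 12522 transcripts, 11.3% as lower and 5.72% as higher, and of the members Sox2 (log2 difference -0.49, SE 0.05, adjusted p = 0.0005), Sox3 (-1.15, SE 0.09, adjusted p = 0.00022), Sox21 (-0.98, SE 0.09, adjusted p = 0.00042) and Sox9 (-0.89, SE 0.07, adjusted p = 0.00024) were lower. The SoxC genes gave -0.01 (Sox4, adjusted p = 0.92), 0.12 (Sox11, adjusted p = 0.16) and 0.09 (Sox12, adjusted p = 0.40). Between E11.5 and E16.5, with 17% called (10.3% lower, 6.77% higher), the same 4 genes were lower, by 0.49 (Sox2), 1.06 (Sox3), 0.75 (Sox21) and 0.72 (Sox9). In that comparison Sox11 (0.21, adjusted p = 0.029) and Sox12 (0.25, adjusted p = 0.032) were higher, but both lost the call without any E16.5 replicate and without replicate B or C of E11.5, Sox12 also without A (adjusted p up to 0.10 and 0.093). Between E11.5 and E14.5, where the test called 0.152% of transcripts (19, with 1583 at an unadjusted p under 0.05), no member was called. Across all 3 stages, 17.3% of transcripts and Sox2, Sox3, Sox21 and Sox9 were called. Before centring, the rates of Sox2 and Sox4 themselves were higher at E16.5 than at E14.5, by ratios of 1.17 and 1.63, so the direction for both depends on this scaling.

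Of the 14 radial glial and SOXB-associated genes 12 were lower in relative label at E16.5 than at E14.5, with a median of -0.75 against 0.00 over all transcripts. Examples were Fabp7 (-0.93), Notch1 (-0.91), Pax6 (-1.00) and Hes5 (-1.15), a Notch target. Of 9 proneural and intermediate progenitor genes measured, 7 were lower (median -0.53), among them Eomes (-1.03), the T-box factor of intermediate progenitors. Of 12 neuronal genes 8 were higher and 1, Tead2, a TEAD factor placed on that list as linked to SoxC, lower (-0.83), with a median of 0.31 and with Stmn2 (0.45) and Neurod6 (0.41) among the higher. The lower label of the 4 Sox genes therefore went with lower label in most genes of the radial glial list. Whether it reflects less 4sU taken up by the cells that express them, a smaller part of the mRNA made during labelling or another mixture of cells was not tested.

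The third measurement was decay over the chase. At 2 h Sox2, Sox21 and Sox9 had lost about as much label as they kept, whereas Sox12 kept most of it, though less at E16.5 than at the earlier stages. Sox9 kept 45.2 ± 3.0, 46.9 ± 2.8 and 41.6 ± 1.9% of its 0 h rate at the 3 stages in order, Sox2 kept 46.5 ± 4.2, 49.0 ± 1.3 and 47.5 ± 1.3%, and Sox21 kept 51.3 ± 1.0, 43.2 ± 8.7 and 42.3 ± 2.4%. Sox3 kept 63.6 ± 5.4, 64.7 ± 4.8 and 81.9 ± 13.5%. Among the SoxC genes Sox4 kept 54.2 ± 2.6, 64.1 ± 0.8 and 59.7 ± 2.0%, Sox11 72.5 ± 2.3, 78.7 ± 1.8 and 60.7 ± 0.7%, and Sox12 87.4 ± 8.2, 86.9 ± 2.8 and 72.9 ± 3.2%. The median over all measured transcripts was 83.5, 88.5 and 77.9%, which every member except Sox12 at E11.5 and Sox3 at E16.5 lay below. After 12 h the members kept between 9.5 and 26.0%, where the medians of all transcripts were 19.8, 20.6 and 11.0%. Their mean rates were then 0.130 to 0.266%, while the 5th percentile of 12 h rates over all transcripts with more than 2000 covered Ts was 0.130%, so the share kept at 12 h holds an unknown part of conversions that are not label.

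**Figure D3:**
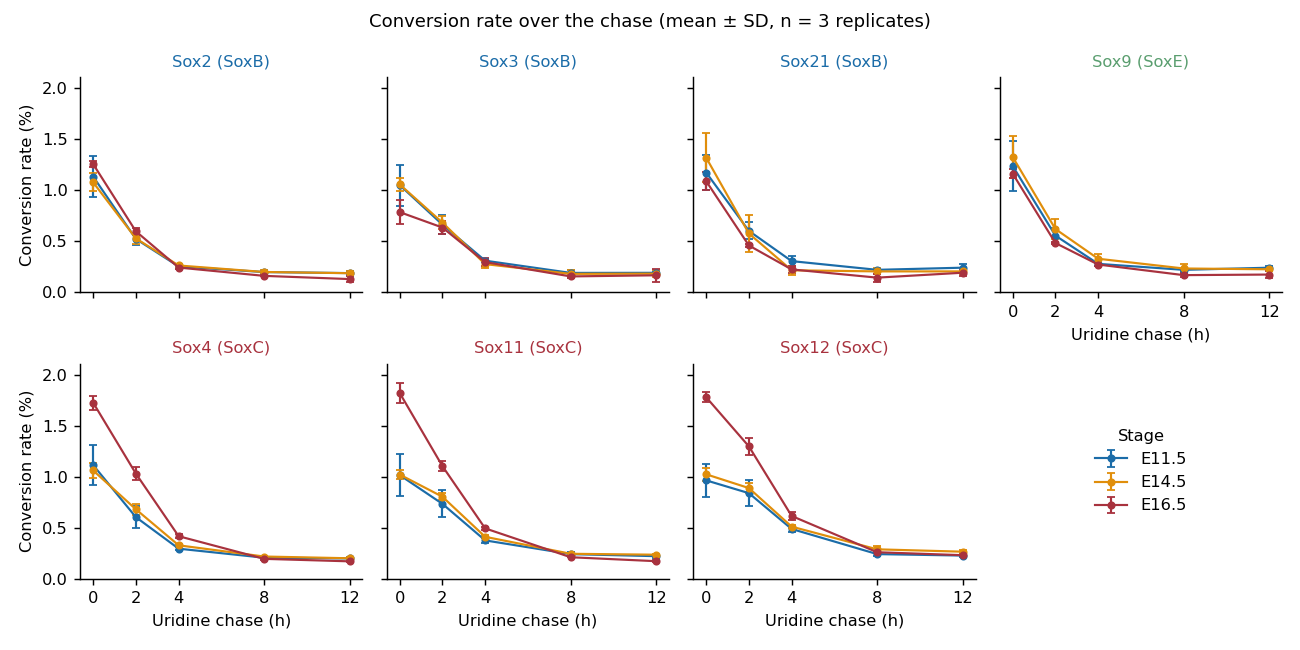
Conversion rate in percent of covered Ts (vertical axis) against hours of uridine chase for each listed member, with a line per stage. Points are means of 3 replicates and bars the SD; Sox2, Sox21 and Sox9 are near 0.25% by 4 h, and the SoxC genes start higher at E16.5, at 1.73 to 1.82%.

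Half-lives from an exponential fit over all 5 chase times placed Sox2, Sox21 and Sox9 among the shortest-lived mRNAs. Sox9 had half-lives of 2.20, 2.31 and 1.81 h in the pools of E11.5, then 2.07, 2.18 and 2.30 h, and then 2.03, 1.93 and 1.75 h, within the lowest 1.53, 1.95 and 6.58% of transcripts of the stage. Sox2 had 2.02, 2.45 and 1.87 h, then 2.38, 2.18 and 2.25 h, then 1.89, 1.88 and 1.96 h, and Sox21 had 2.49, 2.57 and 2.32 h, then 2.17, 1.73 and 1.43 h, then 2.11, 1.90 and 1.57 h. At E14.5 only 0.356% of transcripts had a shorter half-life than Sox21. The stage medians were 4.43, 4.60 and 3.48 h over 10858, 10686 and 11850 transcripts, so these 3 genes had between 0.386 and 0.555 of the median half-life. The fit reads the labelled share of an mRNA, so changes in its total level over the chase enter the half-life, which was not corrected for them. Sox9 reached 146.1 and 140.5% of its 0 h mean at 12 h of E14.5 and E16.5 (below). Sox21 stood at 69.3% at 2 h of E11.5. With that 5th percentile of 0.130% subtracted from all rates the 3 genes had 1.29 to 1.73 h and lay within the lowest 4.07% of transcripts. Their position rested on the 0 h point. In fits from 2 h on, Sox21 passed the filters at no stage and Sox2 and Sox9 failed them at E11.5. At the 2 later stages Sox2 had 4.35 and then 2.51 h, and Sox9 had 4.46 and then 4.38 h, or 1.31 to 2.31 times the values above. The medians of all transcripts in such fits were 3.31 and 2.57 h, which left Sox2 at the percentiles 78.4 and 47.1 and Sox9 at 80.0 and 89.5.

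Sox4 was also short-lived, with 2.57, 2.84 and 2.29 h, then 3.05, 3.04 and 3.16 h, then 2.33, 2.33 and 2.42 h, at the percentiles 5.10, 12.4 and 17.9 of its stages. Sox11 had 3.90, 4.36 and 3.29 h, then 3.93, 4.05 and 4.39 h, then 2.55, 2.44 and 2.45 h (percentiles 34.1, 37.3 and 21.1). Sox12 was the longest-lived SoxC mRNA, with 4.81, 5.65 and 4.32 h, then 5.33, 4.69 and 5.20 h, then 3.06, 3.16 and 3.29 h, near the middle of all transcripts (percentiles 62.4, 61.2 and 41.4). Within the SoxC group the order Sox4, Sox11, Sox12 held at every stage, with an overlap only between Sox11 and Sox12 at E11.5. From 2 h on this order held at E16.5 (1.98, 2.18 and 2.39 h) but at E11.5 the means turned to 3.98, 3.81 and 3.65 h, with overlapping replicates, and at E14.5 the replicates of all 3 genes overlapped. The value of Sox4 at E11.5 thereby moved by 1.55 times. Sox3 had 2.91, 3.61 and 2.51 h, then 2.58, 2.78 and 3.02 h, then 4.69, 3.47 and 3.58 h, and it moved from percentiles 11.9 and 7.96 to 61.2.

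**Figure D4:**
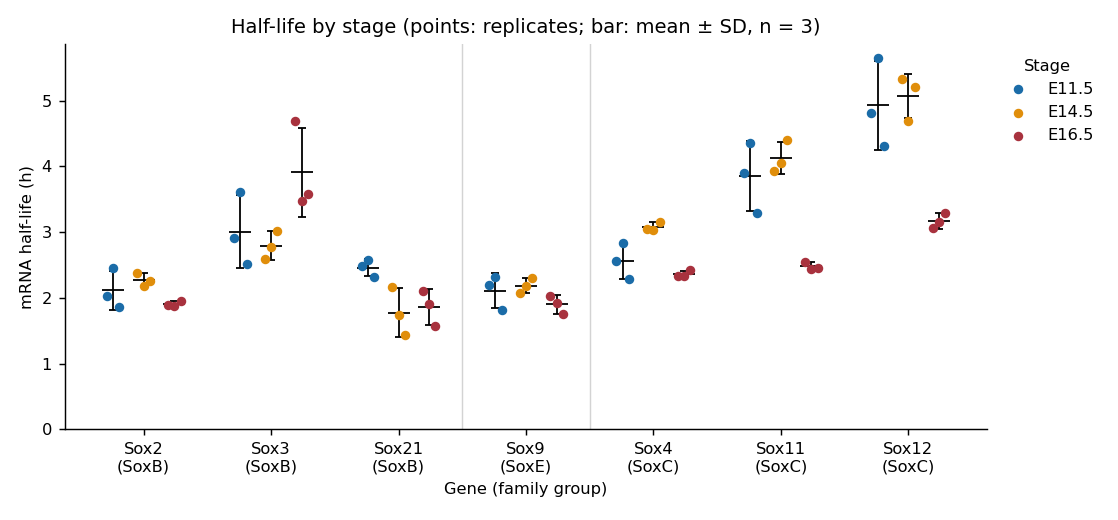
mRNA half-life in hours (vertical axis) by gene and stage. Points are the 3 replicates and bars the mean ± SD; Sox2, Sox21 and Sox9 lie between 1.43 and 2.57 h at every stage, Sox12 between 3.06 and 5.65 h, and Sox3 is the only member whose mean is highest at E16.5.

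Between stages, half-lives were compared after z-scoring within each replicate, since hours shifted by a median of -1.15 between E14.5 and E16.5 over all transcripts. With limma, 3.15% of 9505 transcripts were called across stages, and the only member among them was Sox3 (adjusted p = 0.045). Between E11.5 and E16.5, where 4.7% were called, Sox3 was higher by 0.99 z units (SE 0.21, adjusted p = 0.039). This call was lost whichever replicate was left out (adjusted p between 0.060 and 0.090), and without the 0 h point the difference was 0.33 z units (adjusted p = 0.62). The rate of Sox3 at E16.5 was lower than at E11.5 at 0 h, at 0.787 ± 0.121 against 1.053 ± 0.201%, whereas at 2 h it was 0.636 ± 0.067 against 0.665 ± 0.097%. Between E14.5 and E16.5 the test called 0.884% of transcripts and no member (84 transcripts, with 1627 at an unadjusted p under 0.05), and Sox3 gave 1.12 z units (adjusted p = 0.055). Between E11.5 and E14.5 it called 0.2% and no member (19 transcripts, with 1264 at an unadjusted p under 0.05). In hours, without z-scores, the test called 3620 of 9505 transcripts between E14.5 and E16.5, 3607 of them as shorter at E16.5. Sox11 and Sox12 were among these, shorter by 1.64 and 1.90 h (adjusted p = 0.018 for both), in the direction of the shift of all transcripts.

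Genes with 1 exon, like most members, had medians of 3.40, 3.54 and 2.46 h over 216, 226 and 267 measured genes, against 4.36, 4.55 and 3.39 h for genes with more exons. Sox2, Sox21 and Sox4 lay below the medians for 1-exon genes at every stage, whereas Sox12 lay above them at every stage and Sox3 at E16.5. The mean of Sox11 lay above them at E11.5 and E14.5, while at E16.5 its replicates (2.55, 2.44 and 2.45 h) lay on both sides of the median. Codons whose frequency went with longer half-lives (27 of 61, of which 19 end in G or C, over 8772 transcripts) made up 61.8% of Sox2, 65.6% of Sox3, 65.9% of Sox21, 57.3% of Sox4, 60.5% of Sox11 and 65.6% of Sox12, against a median of 53.7%, and 53.6% of Sox9. The coding sequences were 64.0 to 73.0% G and C. The short half-lives of Sox2 and Sox21 thus stood beside codon contents at the percentiles 84.8 and 95.2.

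The last comparison was of total mRNA level over the chase, which asks whether the amount of each transcript held while the label was lost. Values are TMM-normalized covered Ts per 1e6. Sox21 fell early at E11.5, from 148.6, 169.4 and 142.4 at 0 h to 100.6, 112.4 and 106.3 at 2 h, without overlap, and stood at 97.9, 96.9 and 98.3 at 12 h. It was the only member called at 2 h at E11.5 (log2 change -0.53, SE 0.08, adjusted p = 0.0024), where 1.33% of genes were called. It was also the only one at E14.5 (-0.31, SE 0.07, adjusted p = 0.04), where 1.38% were, with levels of 62.7, 72.5 and 65.2 at 0 h and of 53.4, 55.9 and 52.0 at 2 h. Without replicate A or B the E11.5 call was lost (adjusted p up to 0.19), and the E14.5 call was lost whichever replicate was left out. At E16.5 no member was called by edgeR at 2 h, where 5.8% of genes were (1045, and 3574 at an unadjusted p under 0.05).

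After 12 h at E11.5, 23% of genes and Sox3 (log2 change -0.34, adjusted p = 0.029), Sox21 (-0.65, adjusted p = 2.2e-05) and Sox12 (0.24, adjusted p = 0.012) were called. With the pool as a block, which called 32.4% of genes, Sox2 (-0.14, adjusted p = 0.032), Sox4 (0.16, adjusted p = 0.0093) and Sox11 (-0.13, adjusted p = 0.042) were called as well. In plain cpm Sox4 stood at 98.7% of its 0 h mean there, against 111.4% with TMM, so its direction depends on the scaling. Sox12 stood at 104.4% in plain cpm, against 118.2% with TMM. At E14.5, 15% of genes were called, with Sox21 lower (-0.37, adjusted p = 0.0024) and Sox9 higher (0.55, SE 0.14, adjusted p = 0.013). On recovered reads in place of covered Ts the adjusted p of Sox9 there was 0.054. The block, with 27.7% of genes called, added Sox2 (0.15, adjusted p = 0.048) and Sox11 (-0.13, adjusted p = 0.013) there. At E16.5, 26.2% were called, with Sox2 (-0.15, adjusted p = 0.033) and Sox11 (-0.16, adjusted p = 0.023) lower and Sox9 (0.49, SE 0.06, adjusted p = 4.8e-05) and Sox12 (0.16, adjusted p = 0.034) higher, to which the block, with 37% of genes called, added Sox21 (-0.23, adjusted p = 0.024). Of the calls made without the block, only those of Sox21 at E11.5 and Sox9 at E16.5 held without each replicate in turn.

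Sox9 was the member that rose most at E14.5 and E16.5, while at E11.5 Sox12 (118.2% of its 0 h mean) and Sox4 (111.4%) stood higher at 12 h than Sox9. Its levels went from 208.3, 253.4 and 182.6 at 0 h to 312.2, 337.4 and 291.9 at 12 h at E14.5, and from 81.9, 81.2 and 75.5 to 117.0, 111.5 and 106.9 at E16.5, higher in 3 of 3 pools and without overlap at both stages. At E11.5 they were 501.6, 498.8 and 494.7 and then 522.2, 543.9 and 507.9, or 105.3 ± 3.6% of the 0 h mean, which was not called (adjusted p = 0.29) and was 92.5% in plain cpm, so the direction there depends on the scaling. In an interaction test of stage with chase, which called 7.55% of 17224 genes, Sox9 was the only member called (adjusted p = 0.039), and with the pool as a block its adjusted p was 2.4e-04. With the block, under which 18.2% of genes were called, Sox2, Sox3, Sox21 and Sox4 were called too (adjusted p = 0.018, 0.015, 0.037 and 0.024). The call of Sox9 was lost whichever E11.5 or E16.5 replicate was left out, and without replicate A of E14.5 (adjusted p up to 0.16). At 8 h its level was 134.3 ± 15.6% of 0 h at E14.5 and 132.2 ± 5.1% at E16.5, against 100.9 ± 1.8% at E11.5.

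**Figure D5:**
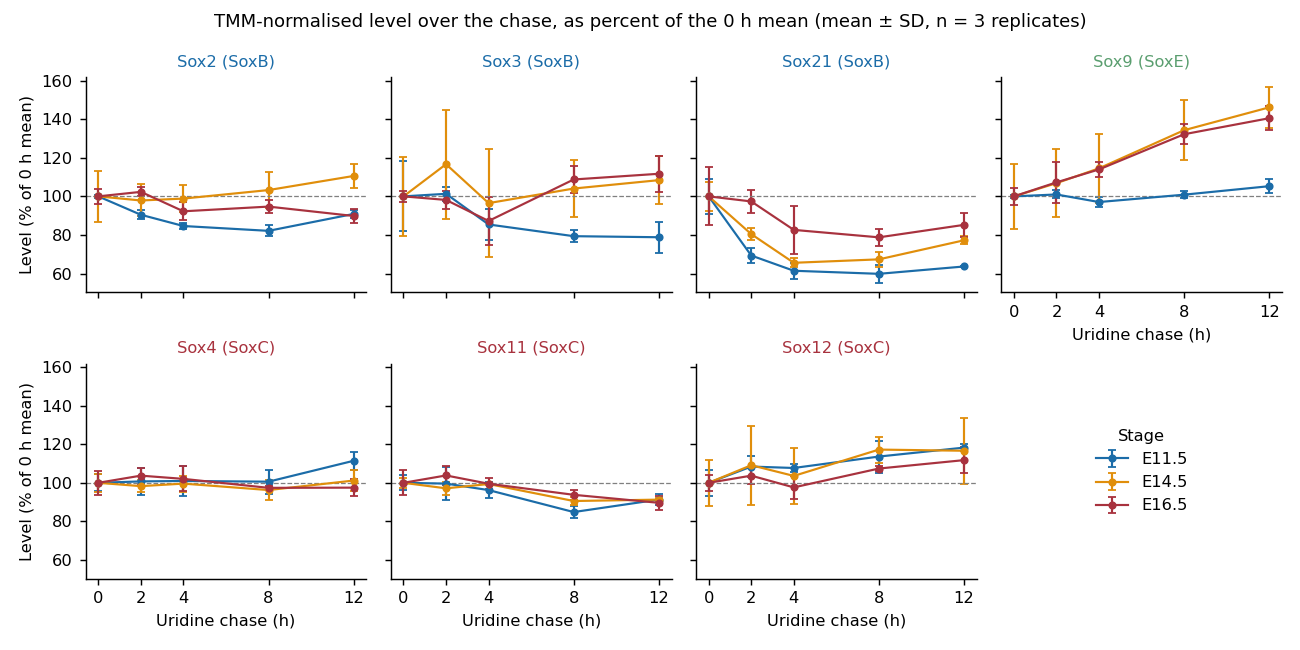
TMM-normalized level of each listed member over the chase, as percent of its 0 h mean (vertical axis, from 50 to 160), against hours of uridine chase. Points are means of 3 replicates and bars the SD, with a line per stage; Sox9 reaches 146 and 141% at E14.5 and E16.5 but 105% at E11.5, and Sox21 falls to 59.9% at E11.5 by 8 h.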

How the data were processed

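Covered Ts and cpm were analysed in 45 SLAM-seq libraries. The authors aligned reads to mm10 with SlamDunk and summed covered and converted Ts over GENCODE exons. Covered Ts were deposited as raw counts, conversion rates as a fraction, and expression as cpm (reads per 1e6 reads), from which whole reads were recovered (100% of values whole within 0.01). The authors also deposited half-lives and R2 values per replicate, used only to check a refit. Aligner settings and multi-mapping were not given in the sources used here. Half-lives were refitted as exp(-kx) to rates divided by the 0 h rate, and kept where covered Ts exceeded 500 at all times, half-life lay below 24 h and R2 exceeded 0.6 in 3 of 3 replicates. The refit was within 1% of the deposited value for 99.99% of 115612 fits.

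Levels were tested with edgeR 4.0.16 (quasi-likelihood F-test, TMM, more than 10 counts in all libraries of the fit), half-lives and label with limma 3.58.1, in R 4.3.3, with Benjamini-Hochberg adjustment over all features. Both tests were checked on simulated data. Within a stage, letters pair wells of the same pool: deviations at 0 h and 12 h correlated at 0.353 to 0.734 within pools and at most 0.137 between pools. Across stages letters mark different embryos. Alternatives covered recovered reads, upper-quartile scaling, DESeq2 1.42.0, filters, blocks, background subtraction, fits without 0 h and left-out replicates. Members, lists and named genes (members, other Sox genes, overlapping genes, the 3 most alike genes, and the leading genes of each list) were chosen with earlier results of these data known.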

Additional observations from a re-analysis of the deposited data

Results flagged for a closer look

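The change of Sox9 over 12 h of chase differed between stages (interaction of stage with chase time in edgeR, adjusted p = 0.039), with log2 changes of 0.07 (E11.5), 0.55 (E14.5) and 0.49 (E16.5). No other member passed this test without the pool as a block.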

How the results depend on the processing

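Of 41 called values of members, tried in 521 alternative settings, 462 kept direction and call, 59 kept direction without the call, and 0 reversed. Member calls at 0 h between stages, and the lower relative label of Sox2, Sox3, Sox21 and Sox9 at E16.5, were kept with each replicate left out and with replicate letters as a block, in which letters of different stages are different embryos. Between 12 h libraries Sox4 was not called for E14.5 against E11.5 (adjusted p = 0.058). Other counts of called members moved. With the pool as a replicate block, 12 h of chase called 6 members at E11.5 (in place of 3) and 4 at E14.5 (in place of 2), and the interaction with stage called 5 (in place of 1). With the neighbouring chase time, added after seeing the data, 4 h in place of 2 h called 2 members at E11.5 (in place of 1), and 8 h in place of 12 h called 1 at E14.5, 2 at E16.5 (in place of 4) and 0 in the interaction. With recovered reads the 2 h call at E14.5 and the interaction called 0, and without the count filter the 2 h call at E14.5 was 0. Leaving out each replicate gave 0 to 1 member at 2 h of E11.5 and 0 at 2 h of E14.5, 1 to 3 at 12 h of E11.5, 1 at 12 h of E14.5, 1 to 3 at 12 h of E16.5, and 0 to 1 in the interaction. For neighbouring times, recovered reads, no count filter and left-out replicates, the share of all genes called is not given here. These counts therefore describe the calls and no trait of the members. For half-lives, E16.5 against E14.5 gave 2 members in hours without scaling, and 1 each with median-centred log2 values, R2 over 0.8 and covered Ts over 2000 (in place of 0). In that order these settings called 3620 of 9505, 154 of 9505, 207 of 6362 and 142 of 8463 transcripts (in place of 84 of 9505). E16.5 against E11.5 gave 2 in hours, with R2 over 0.8 and in fits without 0 h, and 0 with the replicate block, with background subtracted and with each replicate left out (in place of 1). The settings with 2 members called 1222 of 9505, 618 of 6362 and 342 of 8383 transcripts (in place of 447 of 9505). Across stages the count was 2 in hours, and 0 with the replicate block, background subtracted, without 0 h and with each replicate left out (in place of 1). Of the members' mean half-lives under other settings, 34 moved by more than the spread between replicates and 66 did not, all moves being lower values with background subtracted or values without 0 h. The cause of these moves was not tested, except that leaving out replicates leaves fewer samples. Divided by the library rate, the conversion rate ratio of Sox2 turned from 1.17 to 0.688 (E16.5 over E14.5) and from 1.11 to 0.6996 (over E11.5), and that of Sox4 from 1.63 to 0.959 and from 1.55 to 0.978.

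Over whole tables, counts of called genes moved by over 1.5 times in 99 of 230 settings. In hours 3620 transcripts were called between E14.5 and E16.5 (84 with z-scores), 1222 between E11.5 and E16.5 (447) and 2296 across stages (299), and with the replicate block on z-scores 0, 151 and 0 were called. On recovered reads edgeR called 8314 genes between E11.5 and E14.5 (8953 on covered Ts). At 2 h of chase DESeq2 called 528, 677 and 1576 genes (edgeR 238, 248 and 1045), and the block 786, 1381 and 2638. At 12 h the block called 4966 genes of E14.5 (2702 without it), and in the interaction 3139 (1300; DESeq2 1972). Depth limited the rates of Sox3 and Sox21 most, which at 12 h of E16.5 rest on 15 to 21 and 12 to 25 converted Ts.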
